A study of Mus musculus with 16 samples.

Results

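The transcripts described here are 10 widely used markers of lymphocytes, measured by RNA-seq in mouse epididymal white adipose tissue, the visceral fat pad beside the epididymis. They were the entries of the gene table named Cd3e, Cd3d, Cd4, Cd8a and Foxp3 for T cells, Nkg7 for natural killer (NK) and cytotoxic T cells, Cd79a and Cd79b for B cells, and Jchain and Mzb1 for plasma cells, 10 of 20101 genes in all. The names were chosen for the cell types they mark, with earlier results of these data known. FPKM, the fragments of a gene scaled to transcript length and to the library's mapped fragments, is the unit of all levels below. A gene was tested if it had at least 1 FPKM in at least 4 of the 16 libraries. Of the 10 markers 8 passed. Cd8a, with 1 library at 1 FPKM or more, and Foxp3, with 0 such libraries, were too low to judge.

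The 16 libraries came from mice aged 21 weeks, in 4 groups of 4. The tested diet was a high-fat diet (HFD) with 60% fat, given from 5 weeks of age, and its control was chow with 5% fat. The groups were HFD KO-labelled, HFD WT-labelled, chow KO-labelled and chow WT-labelled mice. The sample titles write KO and WT, while the genotype entries of the same samples speak of ApoA4 knockdown; which cells lack the gene, how it was targeted, and the strain are not given in the labels. The targeted gene, Apoa4, which encodes the lipid-binding apolipoprotein A-IV, had 8.69, 9.63, 7.23 and 4.93 FPKM in HFD KO-labelled libraries, against 0.29, 0, 0.08 and 0 FPKM in HFD WT-labelled libraries. On chow it had 3.59, 1.96, 5.96 and 5.29 FPKM in KO-labelled libraries, against 0.29, 0.25, 0.23 and 0.09 FPKM in WT-labelled libraries. Apoa4 RNA was thus higher, not lower, in every library labelled KO, and each direction given below for the genotypes is a direction between labels. This difference was past the test threshold on both diets, with a log2 difference of 2.95 on HFD (limma, adjusted p = 4.04e-05) and 2.03 on chow (adjusted p = 0.000476).

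A T cell carries its antigen receptor in a complex with the CD3 chains, and CD4 or CD8 binds the MHC molecule that presents the antigen. Helper T cells carry CD4, killer T cells carry CD8, and FOXP3 is the transcription factor of regulatory T cells, which are known to be plentiful in the visceral fat of lean mice. A B cell carries its antibody receptor in a complex with CD79A and CD79B, and can become a plasma cell, which secretes antibody. The J chain links antibody units into IgM and IgA polymers, and MZB1 helps fold antibody in the endoplasmic reticulum. High-fat feeding is known to bring macrophages and lymphocytes into this fat pad.

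On the RefSeq annotation of build GRCm38.p6, Cd3e is at chromosome 9, 44998735 to 45009663, on the minus strand, and Cd3d lies next to it at chromosome 9, 44981769 to 44987052, on the plus strand. Cd4 is at chromosome 6, 124864693 to 124888247, on the minus strand, and Cd8a at chromosome 6, 71373427 to 71379171, on the plus strand. Foxp3 is at chromosome X, 7579676 to 7595243, on the plus strand. Nkg7 is at chromosome 7, 43437138 to 43438246, and Cd79a at chromosome 7, 24897497 to 24901858, both on the plus strand. Cd79b is at chromosome 11, 106311341 to 106314562, and Jchain at chromosome 5, 88519809 to 88527897, both on the minus strand. All 10 are protein-coding. No source used here gives the library strand, so reads over exons shared with another gene cannot be assigned: 135 exon bases of Cd3e overlap Gm48719 on the opposite strand, and 695 of Mzb1 overlap SPATA24 on the same strand. Foxp3 shares exon bases with 4 genes, the longest stretch being 853 bases with Flicr.

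The promoters of a CD3 pair that lies side by side, of a B cell receptor chain and of a plasma cell gene are shown because the values below separate these lineages. Each stretch ends at the base before the outermost annotated start of the gene, 5′ to 3′ on the gene's strand, from RefSeq on GRCm38.p6, in which 7 of the 10 markers had a promoter entry. Capitals mark matches to CANNTG, the E-box that helix-loop-helix factors of lymphocytes bind, or to GGAAG on either strand (CTTCC), the core bound by Ets factors.
Cd3e, chr9:45009664-45009861, minus strand: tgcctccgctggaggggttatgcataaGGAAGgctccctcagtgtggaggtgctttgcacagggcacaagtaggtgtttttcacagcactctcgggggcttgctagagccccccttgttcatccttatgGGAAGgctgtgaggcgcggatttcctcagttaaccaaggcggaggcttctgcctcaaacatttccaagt
Cd3d, chr9:44981536-44981768, plus strand: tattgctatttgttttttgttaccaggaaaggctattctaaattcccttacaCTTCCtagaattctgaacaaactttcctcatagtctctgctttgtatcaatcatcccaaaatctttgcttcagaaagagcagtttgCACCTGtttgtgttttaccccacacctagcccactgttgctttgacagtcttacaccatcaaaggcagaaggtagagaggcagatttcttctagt
Cd79a, chr7:24897247-24897380, plus strand: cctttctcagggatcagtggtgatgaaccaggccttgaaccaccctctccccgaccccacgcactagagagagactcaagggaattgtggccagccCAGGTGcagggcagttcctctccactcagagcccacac
Jchain, chr5:88527898-88528147, minus strand: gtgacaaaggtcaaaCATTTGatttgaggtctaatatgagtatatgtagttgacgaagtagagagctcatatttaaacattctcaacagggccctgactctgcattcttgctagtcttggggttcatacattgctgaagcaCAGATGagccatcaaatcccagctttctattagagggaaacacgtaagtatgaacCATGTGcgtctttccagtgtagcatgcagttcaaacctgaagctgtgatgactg

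The Cd3e stretch of 198 bases holds 2 Ets matches, whose first bases are 171 and 69 bases before the start, and 0 E-box matches. The Cd3d stretch of 233 bases holds 1 E-box match at 95 bases and 1 Ets match at 181 bases before the start. The Cd79a stretch of 134 bases holds 1 E-box match at 38 bases, and the Jchain stretch of 250 bases holds 3, at 235, 109 and 54 bases. No match overlaps another. Such matches are common: of all promoter entries, cut to the same length, 58.7%, 63.9%, 45.4% and 66.2% hold an E-box at 198, 233, 134 and 250 bases, and 54.5%, 60.9%, 40.3% and 64.1% hold an Ets match. They describe the letters only and were not compared with the expression values.

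The libraries were first checked for tissue and quality. The 8 adipocyte markers, such as Adipoq and Plin1, summed to between 811 and 4219 FPKM in HFD KO-labelled, 1639 and 6963 in HFD WT-labelled, 9944 and 26980 in chow KO-labelled and 19410 and 22531 FPKM in chow WT-labelled libraries, so the label of fat tissue holds. Genes of the epididymis, 8 in the list, summed to 5457 FPKM in HFD KO-labelled library 4, 365 FPKM in HFD KO-labelled library 2 and 11096 FPKM in chow KO-labelled library 2. They summed to at most 38.5 FPKM in the other 13. All 3 libraries with these high sums are labelled KO. One of the 8 genes, Gpx5, was at 4187 FPKM in chow KO-labelled library 2. It was at only 0.25 FPKM in HFD KO-labelled library 4 and 2.97 FPKM in HFD KO-labelled library 2, beside 2.35 FPKM in HFD WT-labelled library 4. The high sums of the 2 HFD libraries thus came from other genes of the list. Gpx5 was listed at 0 in 2 libraries. Relative depth, read from the step of circular RNA entries, ran from 0.752 in chow KO-labelled library 4 to 1.42 in HFD KO-labelled library 4; the absolute depth is unknown, so the counting error of low values is unknown too. The markers' differences that involve HFD KO-labelled library 4 or chow KO-labelled library 2, the richest in epididymal RNA, are also given without them where they move most.

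**Figure D1:**
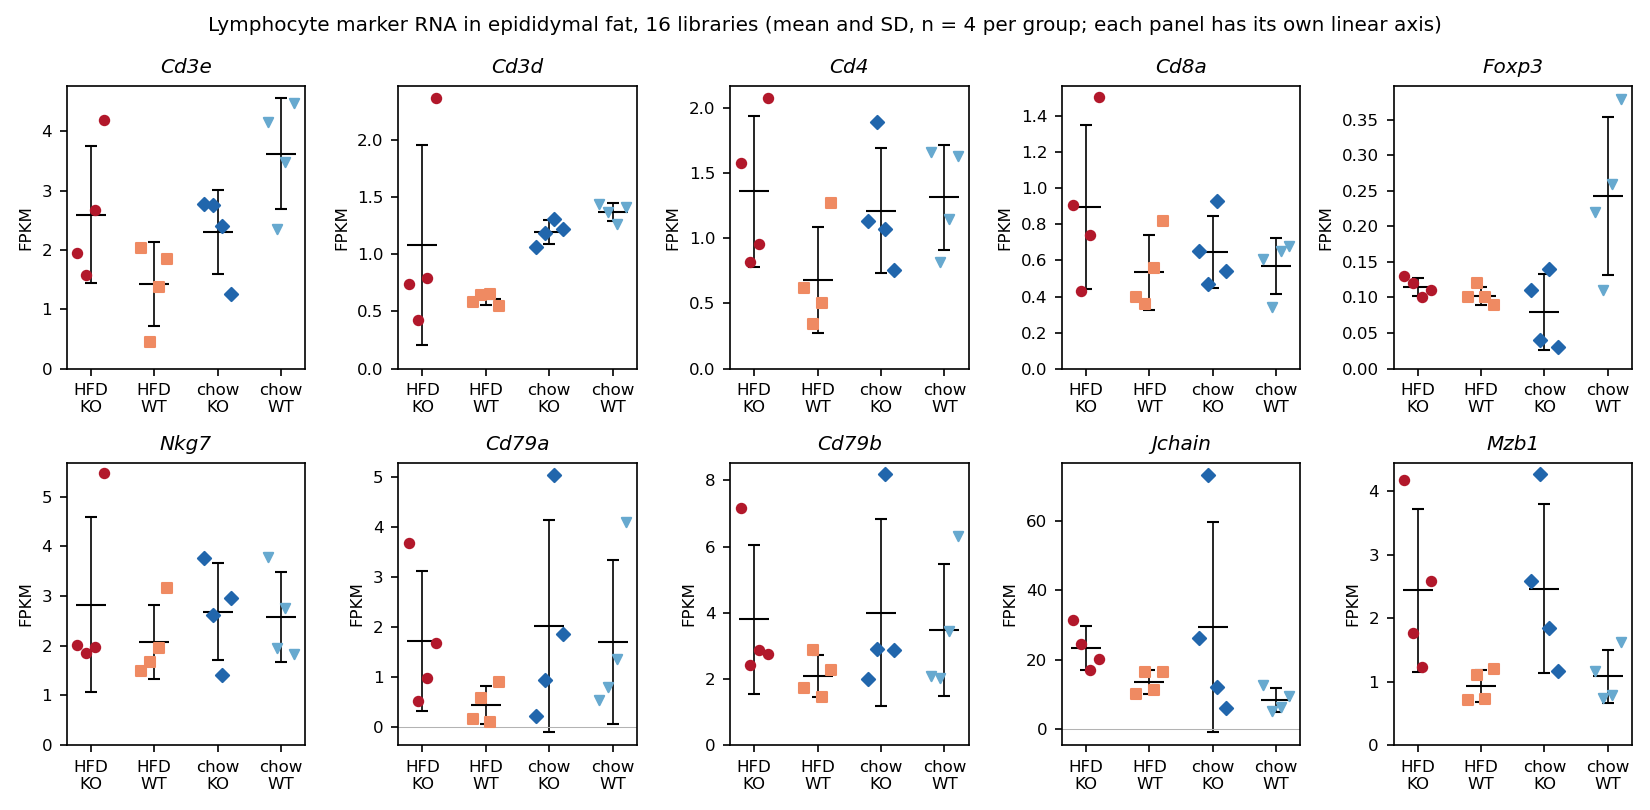
FPKM of the 10 lymphocyte markers in each library (points) with the mean and SD of each group (bars, n = 4), HFD KO-labelled, HFD WT-labelled, chow KO-labelled and chow WT-labelled from left to right; each panel has its own linear axis. Cd3d separates HFD from chow in WT-labelled mice, Jchain reaches 73.24 FPKM in 1 chow KO-labelled library, and Foxp3 stays at or below 0.38 FPKM.

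Most of the markers were rare transcripts. On the FPKM scale, which allows levels of different genes to be compared per length, Jchain was the most abundant, with a median of 14.5 FPKM over the 16 libraries and a range of 5.18 to 73.24 FPKM. Cd79b followed with a median of 2.81 FPKM, then Cd3e with 2.39, Nkg7 with 2.0, Mzb1 with 1.21, Cd3d with 1.12, Cd4 with 1.1, Cd79a with 0.925, Cd8a with 0.63 and Foxp3 with 0.11 FPKM. The ranges of neighbours in this order overlap, so the order of levels is loose below Jchain.

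In WT-labelled mice the RNA of both CD3 chains, Cd3e and Cd3d, fell on HFD, and none of the other tested markers passed the threshold. A marker rose or fell where limma gave an adjusted p under 0.05, the adjustment being that of Benjamini and Hochberg across the 12667 genes tested, and differences are of means of log2(FPKM + 1), a scale that understates the change of low genes. Of the 8 testable markers 0 rose and 2 fell, while 17.2% of all tested genes fell in this comparison. That is 2 genes against a common background, and it says nothing particular about the markers as a set. The median difference was -0.47 over the 8 markers and 0.06 over all tested genes.

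Cd3e, the epsilon chain of CD3, had 2.04, 0.44, 1.38 and 1.84 FPKM in HFD WT-labelled libraries, against 4.16, 2.36, 3.49 and 4.48 FPKM in chow WT-labelled libraries. Every HFD library lay below every chow library. The log2 difference was -0.96 (SE 0.27, 95% interval -1.54 to -0.38, limma adjusted p = 0.011). Leaving out any one of the 16 libraries kept the call, with differences of -1.11 to -0.73. In bulk tissue, fewer T cells and less RNA per T cell cannot be told apart, and neither can a rise of other cells that takes up a larger share of the RNA.

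Cd3d, the delta chain, had 0.58, 0.64, 0.65 and 0.55 FPKM in HFD WT-labelled libraries, against 1.44, 1.37, 1.26 and 1.41 FPKM in chow WT-labelled libraries. The groups did not overlap, and within each the values were tight. Every HFD WT-labelled value lay below the filter level of 1 FPKM. Cd3d reached that level in 9 libraries, which were every chow library and 1 HFD KO-labelled library. It thus passed the filter mainly through chow libraries, and its falls on HFD, here and below, are given as a description. In WT-labelled mice the log2 difference was -0.56 (SE 0.20, 95% interval -0.99 to -0.14, limma adjusted p = 0.035). The call was lost, at adjusted p from 0.0549 to 0.0718, in all 8 fits that left out 1 library of these groups.

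Cd4, the coreceptor of helper T cells, had 0.62, 0.34, 0.50 and 1.27 FPKM in HFD WT-labelled libraries, against 1.66, 0.82, 1.15 and 1.63 FPKM in chow WT-labelled libraries. HFD WT-labelled library 4 reached into the chow range. The log2 difference was -0.47 (95% interval -0.94 to 0.00, limma adjusted p = 0.099), which misses the threshold. It passed with median-of-ratios scaling (adjusted p = 0.0486), quantile normalization (0.0421) and array weights (0.0393), without the 3 libraries that hold epididymal RNA (0.0496) and without HFD WT-labelled library 4 (0.0398, at a difference of -0.63), so its call depends on the processing.

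In KO-labelled mice 0 of the 8 testable markers passed the threshold between HFD and chow (limma), and 0 had an unadjusted p under 0.05, while 38.9% of all tested genes changed. The median difference was 0.00 over the markers and 0.08 over all tested genes. Cd3e had 1.95, 1.57, 2.68 and 4.19 FPKM in HFD KO-labelled libraries, against 2.78, 2.75, 2.41 and 1.26 FPKM in chow KO-labelled libraries. The groups overlapped fully, with the highest value in the HFD library 4 and the lowest in the chow library 4. The log2 difference was 0.10 (95% interval -0.48 to 0.68). This interval overlaps that of the WT-labelled mice, -1.54 to -0.38. Without HFD KO-labelled library 4 the difference was -0.09.

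Cd3d had 0.74, 0.42, 0.79 and 2.36 FPKM in HFD KO-labelled libraries, against 1.06, 1.18, 1.31 and 1.22 FPKM in chow KO-labelled libraries. Of the HFD libraries 3 lay below all chow libraries, and HFD KO-labelled library 4, which holds epididymal RNA, lay above them. With all libraries the log2 difference was -0.16 (95% interval -0.58 to 0.27). Without that library it was -0.42 (limma adjusted p = 0.0163), which passes the threshold. It also passed with array weights and all libraries, and without the 2 libraries richest in epididymal RNA (-0.42, adjusted p = 0.017), but not without the 3 that hold it (-0.31, adjusted p = 0.0506). Whether Cd3d fell on HFD in KO-labelled mice thus depends on which libraries are used.

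Cd4 had 1.58, 0.82, 0.96 and 2.08 FPKM in HFD KO-labelled libraries, against 1.13, 1.89, 1.07 and 0.76 FPKM in chow KO-labelled libraries, with a log2 difference of 0.08 (95% interval -0.39 to 0.56), and of -0.05 without HFD KO-labelled library 4. HFD KO-labelled library 4 was the highest of all 16 for Cd3d, Cd4, Cd8a and Nkg7. Cd52, from the list of pan-leukocyte genes, stood at 4013 FPKM there, against at most 719 FPKM in any other library. Which cells hold this Cd52 RNA was not tested. Ptprc, which encodes CD45, the surface phosphatase of all leukocytes, was at 24.0 FPKM there, the lowest value of the 8 HFD libraries. The part of epididymal RNA in these values was not tested beyond leaving the library out.

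Averaged over the 2 genotype labels, 1 of the 8 markers fell on HFD and 0 rose, while 23.4% of all tested genes fell. That 1 was Cd3d, with a log2 difference of -0.36 (SE 0.14, limma adjusted p = 0.0415). This call was lost in 15 of the 16 fits that left out 1 library, at adjusted p from 0.0501 to 0.0836; without HFD KO-labelled library 4 the difference was -0.49 (adjusted p = 0.00026). Cd3e averaged -0.43 (SE 0.19, limma adjusted p = 0.0684).

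The change of the diet effect with genotype label was tested as an interaction, the HFD minus chow difference in KO-labelled less that in WT-labelled mice. It passed the threshold for 0 of the 8 markers, with 0.292% of all genes past it, and 1 marker had an unadjusted p under 0.05. That marker was Cd3e, with an interaction of 1.06 on the log2 scale (SE 0.38, 95% interval 0.25 to 1.88, limma adjusted p = 0.323). The diet difference of Cd3e is therefore not shown to depend on the genotype label.

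**Figure D2:**
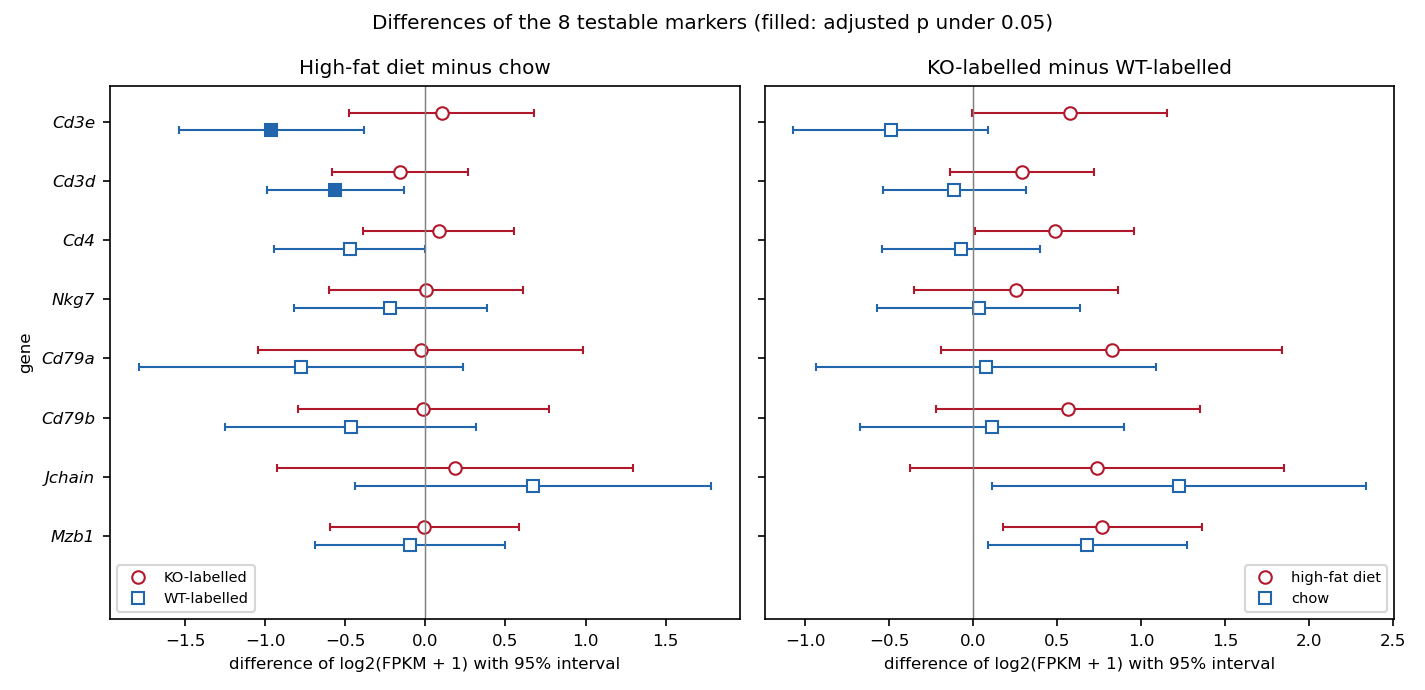
Log2 differences of the 8 testable markers with 95% intervals, HFD minus chow (left) and KO-labelled minus WT-labelled (right); filled symbols have an adjusted p under 0.05. Only Cd3e at -0.96 and Cd3d at -0.56, in HFD against chow WT-labelled mice, are filled.

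Cd8a, the coreceptor of killer T cells, had 0.91, 0.43, 0.74 and 1.51 FPKM in HFD KO-labelled libraries and 0.40, 0.36, 0.56 and 0.82 FPKM in HFD WT-labelled libraries. In chow libraries Cd8a had 0.65, 0.47, 0.93 and 0.54 FPKM in KO-labelled libraries and 0.61, 0.34, 0.65 and 0.68 FPKM in WT-labelled libraries. The 4 groups overlapped, and at these levels neither a rise nor a fall was detectable.

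Foxp3 had 0.13, 0.12, 0.10 and 0.11 FPKM in HFD KO-labelled libraries and 0.10, 0.12, 0.10 and 0.09 FPKM in HFD WT-labelled libraries. In chow libraries Foxp3 had 0.11, 0.04, 0.14 and 0.03 FPKM in KO-labelled libraries and 0.22, 0.11, 0.26 and 0.38 FPKM in WT-labelled libraries. The highest 3 of the 16 values were all in chow WT-labelled libraries, and the fourth of that group, at 0.11 FPKM, lay within the range of the others. Foxp3 was too low to judge. Only with no filter on low values, which put 19161 genes into the fit, did it have an adjusted p, of 0.0313 for HFD against chow in WT-labelled mice, at a difference of -0.17.

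The genes that accompany CD3 in T cells were given as a list of 16, of which 8 could be tested. In WT-labelled mice 0 rose and 2 fell on HFD, where 24.6% of all tested genes rose and 17.2% fell. Cd2, an adhesion receptor of T and NK cells, averaged 2.47 ± 0.88 FPKM in HFD WT-labelled and 7.98 ± 1.77 FPKM in chow WT-labelled libraries (SD, n = 4 each), a log2 difference of -1.39 (limma adjusted p = 0.000568). Cd3g, the gamma chain of CD3, averaged 1.19 ± 0.30 FPKM in HFD WT-labelled and 2.84 ± 0.95 FPKM in chow WT-labelled libraries (SD, n = 4 each), a log2 difference of -0.79 (limma adjusted p = 0.02); this call was lost without HFD WT-labelled library 2 or chow WT-labelled library 1. The gamma, delta and epsilon chains of CD3 were thus all lower on HFD in WT-labelled mice.

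In KO-labelled mice 2 of these 8 genes rose on HFD and 0 fell, while 23.5% of all tested genes rose and 15.3% fell, so the count that rose is near the background. The same shares apply to the lists below. Cd28, the costimulatory receptor of T cells, averaged 1.85 ± 0.67 FPKM in HFD KO-labelled and 0.765 ± 0.381 FPKM in chow KO-labelled libraries (SD, n = 4 each), a log2 difference of 0.69 (limma adjusted p = 0.0188). Cd8b1, the beta chain of CD8, averaged 1.44 ± 0.75 FPKM in HFD KO-labelled and 0.505 ± 0.482 FPKM in chow KO-labelled libraries (SD, n = 4 each), a log2 difference of 0.70 (limma adjusted p = 0.0298). Both calls depend on the libraries and the scaling: Cd28 lost its call in 4 of 28 alternatives and Cd8b1 in 9 of 28, which include leaving out HFD KO-labelled library 4, and with quantile normalization 0 of the 8 rose. Without the 2 libraries richest in epididymal RNA 1 rose and 1 fell. The median difference of the list was -0.46 in WT-labelled and -0.01 in KO-labelled mice.

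Of 7 naive and homing T cell genes 6 could be tested. In WT-labelled mice 1 rose, and in KO-labelled mice 2 rose, with 0 lower in either. Il7r, the receptor chain for the T cell survival factor interleukin 7, averaged 31.7 ± 10.9 FPKM in HFD KO-labelled against 1.88 ± 0.39 FPKM in chow KO-labelled libraries, and 41.8 ± 17.3 FPKM in HFD WT-labelled against 2.80 ± 0.19 FPKM in chow WT-labelled libraries (SD, n = 4 each). Its log2 difference was 3.44 in KO-labelled and 3.39 in WT-labelled mice, opposite in sign to the difference of Cd3e in WT-labelled mice. The other, S1pr1, which encodes a receptor for egress from lymphoid tissue that endothelium also carries, rose by 0.61 in KO-labelled mice, a call lost in 8 of 29 alternatives. The Il7r calls held in all of them, and which cells hold the Il7r RNA was not tested. Without the 2 libraries richest in epididymal RNA, 2 of the 6 fell in WT-labelled mice. Without the 3 that hold it, 4 of the 6 rose and 0 fell in KO-labelled mice.

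Of 17 regulatory and effector T cell genes 6 could be tested. In WT-labelled mice 2 rose and 2 fell, and in KO-labelled mice 2 rose and 1 fell. Il10, an anti-inflammatory cytokine, rose by 0.80 in KO-labelled and 0.89 in WT-labelled mice, and Il1rl1, the interleukin 33 receptor, by 0.81 and 0.64. On chow Il10 reached at most 0.53 FPKM in KO-labelled and 0.24 FPKM in WT-labelled libraries. Il10 thus passed the filter of 1 FPKM through HFD libraries alone, and its rise is given as a description. The Il10 call was lost in 6 of 28 alternatives in KO-labelled and 2 of 28 in WT-labelled mice, and the Il1rl1 call in 3 of 28 and 14 of 28. With quantile normalization 0 of the 6 rose and 3 fell in KO-labelled mice, and 1 rose and 3 fell in WT-labelled mice. Ikzf2, a transcription factor found in regulatory T cells, had a difference of -0.67 in WT-labelled mice and passed the threshold there.

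Nkg7, a granule membrane protein of NK and cytotoxic T cells, did not pass the threshold in any comparison. It had 2.02, 1.85, 1.98 and 5.47 FPKM in HFD KO-labelled libraries and 1.49, 1.68, 1.96 and 3.16 FPKM in HFD WT-labelled libraries. In chow libraries Nkg7 had 3.76, 2.61, 1.41 and 2.97 FPKM in KO-labelled libraries and 3.79, 1.96, 2.75 and 1.83 FPKM in WT-labelled libraries. All 4 groups overlapped, and HFD KO-labelled library 4 stood alone. The log2 difference of HFD against chow was 0.00 (95% interval -0.60 to 0.61, and -0.28 without that library) in KO-labelled and -0.22 (95% interval -0.82 to 0.39) in WT-labelled mice.

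Of 15 other NK and cytotoxic genes 9 could be tested, and 0 passed the threshold between HFD and chow in either genotype label, with 1 at an unadjusted p under 0.05 in KO-labelled mice, Gzma, and 0 in WT-labelled mice (limma). Gzma, the granule protease granzyme A, had a log2 difference of -0.69 in KO-labelled mice (limma adjusted p = 0.0862). Il2rb, the interleukin 2 and 15 receptor chain of NK cells, had -0.43 in WT-labelled mice (limma adjusted p = 0.124). The median difference of the list was -0.29 in both.

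The B cell receptor genes were high in 3 libraries, each of a different group. Cd79a, the alpha chain, had 3.69, 0.53, 0.99 and 1.68 FPKM in HFD KO-labelled libraries and 0.16, 0.59, 0.11 and 0.90 FPKM in HFD WT-labelled libraries. On chow it had 0.23, 0.95, 5.04 and 1.86 FPKM in KO-labelled libraries and 0.54, 0.81, 1.36 and 4.11 FPKM in WT-labelled libraries. The highest were chow KO-labelled library 3, chow WT-labelled library 4 and HFD KO-labelled library 1.

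Cd79b, the beta chain, had 7.18, 2.41, 2.86 and 2.75 FPKM in HFD KO-labelled libraries and 1.71, 2.88, 1.45 and 2.27 FPKM in HFD WT-labelled libraries. On chow it had 2.01, 2.91, 8.19 and 2.87 FPKM in KO-labelled libraries and 2.10, 2.04, 3.45 and 6.32 FPKM in WT-labelled libraries. The same 3 libraries were the highest for both chains.

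Neither chain passed the threshold. The log2 difference of HFD against chow was -0.03 for Cd79a and -0.01 for Cd79b in KO-labelled mice, and -0.78 (95% interval -1.79 to 0.24) and -0.47 (95% interval -1.25 to 0.32) in WT-labelled mice.

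Other B cell genes, chosen for this check after the Cd79a values were seen, were high in the same 3 libraries. Ms4a1, which encodes the B cell surface protein CD20, was at 2.66 to 5.14 FPKM in these 3, against 0.17 to 1.24 FPKM in the other 13 libraries. Spib, a B cell transcription factor, was at 1.23 to 1.79 FPKM in the 3, against 0.08 to 0.92 FPKM in the other 13. Blnk and Cd37 did not follow them, with 3.85 to 46.2 FPKM and 12.03 to 57.4 FPKM in the 3 libraries, against 2.65 to 72.3 FPKM and 7.88 to 56.3 FPKM in the other 13.

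Genes of lymph node stroma, a tissue that also holds B cells, were measured beside these. Their sum over 5 genes ran from 3.73 to 83.2 FPKM in HFD KO-labelled, 1.71 to 83.8 FPKM in HFD WT-labelled, 17.9 to 104 FPKM in chow KO-labelled and 28.5 to 74.2 FPKM in chow WT-labelled libraries. One of them, Ccl21a, is a chemokine of lymphatic vessels and node stroma and was at 0.16 FPKM in HFD KO-labelled library 1, 22.6 FPKM in chow KO-labelled library 3 and 72.1 FPKM in chow WT-labelled library 4. The node vessel genes Glycam1 and Madcam1 were at or below 0.12 and 0.16 FPKM in every library, with Glycam1 listed at 0 in 15 of 16. The part of lymph node tissue in the Cd79a values was not tested.

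Of the 17 B cell genes in the list 15 had an entry, and 6 could be tested. Between HFD and chow 3 rose and 0 fell in KO-labelled mice, and 3 rose and 1 fell in WT-labelled mice. Of all tested genes, 23.5% rose and 15.3% fell in KO-labelled mice, and 24.6% rose and 17.2% fell in WT-labelled mice. The 3 that rose were Blnk, Cd37 and Cd22 in both. Blnk, an adaptor of B cell receptor signalling that macrophages also express, averaged 41.1 ± 10.8 FPKM in HFD KO-labelled against 5.18 ± 3.31 FPKM in chow KO-labelled libraries, and 48.0 ± 23.6 FPKM in HFD WT-labelled against 5.59 ± 0.59 FPKM in chow WT-labelled libraries (SD, n = 4 each). Cd37, a tetraspanin of leukocytes, differed by 1.84 and 1.28 on the log2 scale in KO-labelled and WT-labelled mice, and Cd22, an inhibitory receptor of B cells, by 1.53 in both. Bank1, a B cell scaffold protein, differed by -0.92 in WT-labelled mice. Ms4a1 differed by -0.27 in KO-labelled and -0.72 in WT-labelled mice and did not pass the threshold (limma adjusted p = 0.203 in WT-labelled mice).

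The 10 macrophage markers moved with these B cell genes: 10 rose on HFD in KO-labelled and 9 in WT-labelled mice, with median log2 differences of 2.14 and 1.84. Their sum ran from 1011 to 2558 FPKM in HFD KO-labelled against 305 to 388 FPKM in chow KO-labelled libraries, and from 745 to 2553 FPKM in HFD WT-labelled against 404 to 478 FPKM in chow WT-labelled libraries. Of 6 pan-leukocyte genes 6 rose in KO-labelled and 4 in WT-labelled mice, among them Ptprc, by 1.73 and 1.76. Without the 2 libraries richest in epididymal RNA, 6 rose in KO-labelled and 5 in WT-labelled mice. Of the 8 testable lymphocyte markers 0 rose on HFD, while 23.5% of all tested genes rose in KO-labelled and 24.6% in WT-labelled mice. That count says nothing particular about the markers as a set. The markers' differences of HFD against chow lay between -0.16 and 0.18 in KO-labelled mice. In WT-labelled mice they lay between -0.96 and 0.67, with Jchain the highest in both labels. The part of macrophages in the rise of Blnk, Cd37 and Cd22 was not tested.

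**Figure D3:**
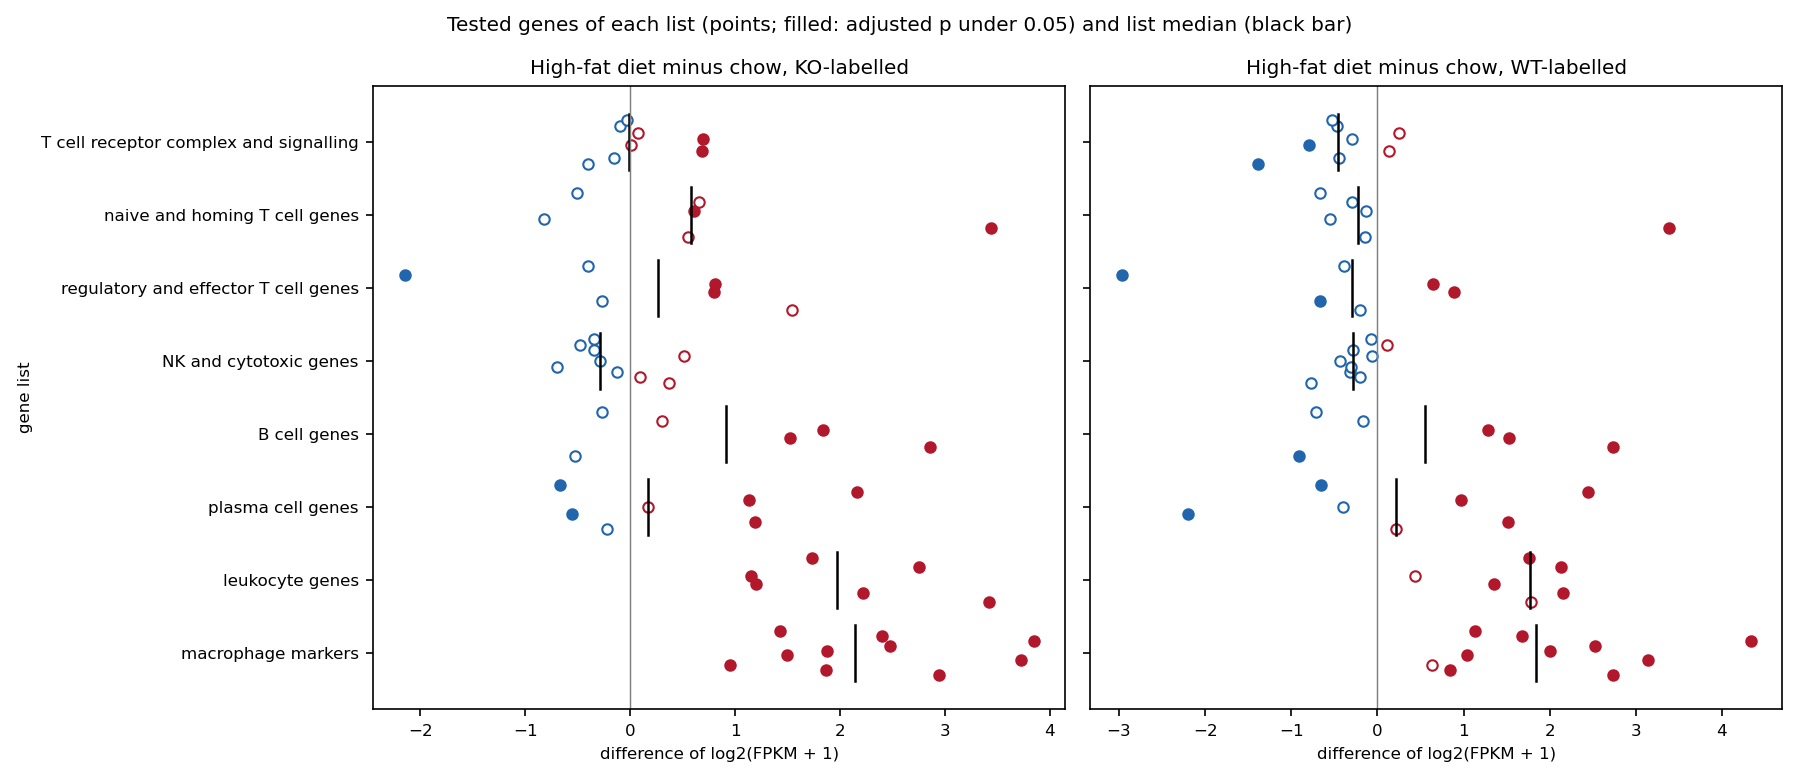
Log2 differences of HFD minus chow for the tested genes of 8 lists (points, filled where the adjusted p was under 0.05; black bars, list medians), KO-labelled mice on the left and WT-labelled mice on the right. The macrophage markers lie at medians of 2.14 and 1.84, while the NK and cytotoxic genes lie at -0.29 in both, with 0 past the threshold.

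The plasma cell markers Jchain and Mzb1 passed the threshold in no comparison of the 7. Jchain had 31.51, 24.53, 17 and 20.06 FPKM in HFD KO-labelled libraries, against 9.98, 16.39, 11.19 and 16.52 FPKM in HFD WT-labelled libraries. On HFD every KO-labelled library lay above every WT-labelled one. Among chow libraries Jchain had 26.27, 73.24, 12.19 and 6.06 FPKM in KO-labelled libraries, against 12.56, 5.18, 6.18 and 9.52 FPKM in WT-labelled libraries. There the groups overlapped, and chow KO-labelled library 2, which holds epididymal RNA, was the highest of all 16.

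Mzb1 had 4.17, 1.76, 1.23 and 2.59 FPKM in HFD KO-labelled libraries, against 0.71, 1.11, 0.72 and 1.19 FPKM in HFD WT-labelled libraries. On HFD these groups did not overlap either, although the closest values, 1.23 and 1.19 FPKM, were nearly equal. On chow it had 2.58, 4.27, 1.84 and 1.17 FPKM in KO-labelled libraries, against 1.16, 0.74, 0.79 and 1.63 FPKM in WT-labelled libraries, and these overlapped. The share of all tested genes whose groups do not overlap was not counted, here or for Cd3e and Cd3d above. The lack of overlap therefore adds nothing to the tests of these markers.

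On HFD 0 of the 8 markers passed the threshold between KO-labelled and WT-labelled mice (limma), while 0.0316% of all tested genes did, and 2 had an unadjusted p under 0.05. These were Mzb1, with a log2 difference of 0.77 (SE 0.28, 95% interval 0.18 to 1.36, limma adjusted p = 0.348), and Cd4, with 0.48 (SE 0.22, 95% interval 0.01 to 0.96, limma adjusted p = 0.412). Jchain differed by 0.74 (95% interval -0.37 to 1.85), Cd79a by 0.82 (95% interval -0.19 to 1.84), Cd3e by 0.57 (95% interval -0.01 to 1.15), Cd79b by 0.57, Cd3d by 0.29 and Nkg7 by 0.25. All 8 differences were above 0, with a median of 0.57 against 0.09 over all tested genes, and they were above 0 under the 3 other scalings too. The scalings use the same libraries, and some of these markers vary together, so the 8 signs are not 8 separate results. The share of all tested genes above 0 was not counted. Without HFD KO-labelled library 4, Nkg7 differed by -0.03, Cd3d by 0.03, Cd4 by 0.35, Cd3e by 0.38, Cd79b by 0.65, Mzb1 by 0.72, and Cd79a and Jchain by 0.79, so that 7 of the 8 were above 0.

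On chow 0 of the 8 markers passed the threshold between KO-labelled and WT-labelled mice (limma), while 1.41% of all tested genes did, and 2 had an unadjusted p under 0.05. Jchain differed by 1.22 (SE 0.52, 95% interval 0.11 to 2.34, limma adjusted p = 0.296), and by 0.61 without chow KO-labelled library 2 (adjusted p = 0.603). Mzb1 differed by 0.68 (SE 0.28, 95% interval 0.09 to 1.27, limma adjusted p = 0.279), and by 0.45 without that library (adjusted p = 0.552). Cd3e differed by -0.49 (95% interval -1.07 to 0.09), and the other 5 by -0.11 to 0.11. The median difference was 0.05, against 0.09 over all tested genes.

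Averaged over the 2 diets, 0 of the 8 markers passed the threshold between the genotype labels (limma), with 0.442% of all genes past it and 2 markers at an unadjusted p under 0.05. Mzb1 had the smallest p of the 8, with a difference of 0.72 (SE 0.20, 95% interval 0.30 to 1.14, limma adjusted p = 0.116), and ranked 241st among the 12667 genes. Jchain differed by 0.98 (SE 0.37, 95% interval 0.19 to 1.77, limma adjusted p = 0.209).

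The diet did not move the plasma cell markers past the threshold. For Jchain the HFD minus chow difference was 0.18 (95% interval -0.93 to 1.3) in KO-labelled and 0.67 (95% interval -0.44 to 1.78) in WT-labelled mice, and for Mzb1 it was -0.01 and -0.10. The average of Jchain over the genotype labels was 0.43 with all libraries. It was 0.73 without chow KO-labelled library 2 (limma adjusted p = 0.0275), which passes the threshold. Jchain also passed with array weights and all libraries, and without the 2 libraries richest in epididymal RNA, but not without the 3 that hold it. Its call thus depends on the libraries and the processing.

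Of 15 plasma cell genes in the list 8 had an entry, and the 7 antibody constant region genes were not analysed here. Of the 7 that could be tested, 3 rose and 2 fell on HFD in each genotype label, against 23.5% of all tested genes that rose and 15.3% that fell in KO-labelled mice, and 24.6% and 17.2% in WT-labelled mice. Sdc1, which encodes syndecan 1, a plasma cell surface proteoglycan that epithelia and macrophages also carry, differed by 2.16 in KO-labelled and 2.44 in WT-labelled mice. Fkbp11, a folding enzyme of secretory cells, differed by 1.19 and 1.52, and Prdm1, the transcription factor that sets plasma cell fate, by 1.14 and 0.97. Xbp1, a transcription factor of the unfolded protein response that adipocytes also use, differed by -0.67 and -0.65, and Irf4 by -0.55 and -2.20. In KO-labelled mice the calls of Irf4 and Fkbp11 were lost in 15 of 29 and 8 of 28 alternatives.

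Irf4, a transcription factor of lymphocytes and plasma cells that adipocytes also express, was the 1 gene of the 6 lymphocyte lists to pass the threshold between the genotype labels on either diet. It averaged 4.49 ± 1.12 FPKM in chow KO-labelled against 18.1 ± 5.5 FPKM in chow WT-labelled libraries, a log2 difference of -1.78 (SD, n = 4 each; limma adjusted p = 0.000441). On HFD it averaged 2.69 ± 0.11 FPKM in KO-labelled and 3.08 ± 0.84 FPKM in WT-labelled libraries. The diet difference changed with the label by 1.65 on the log2 scale (limma interaction, adjusted p = 0.0248), a call lost in 11 of 28 alternatives.

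Some markers of one lineage varied together among mice of the same group, which was measured by Pearson's r of the deviations from the group mean of log2(FPKM + 1) over the 16 libraries. These values are descriptions: the points share library depth and tissue makeup, and no p is given. Among the 28 pairs of testable markers the highest r was 0.94 for Cd79a with Cd79b, followed by 0.83 for Jchain with Mzb1 and 0.75 for Cd3e with Cd4. Cd3e with Cd3d had 0.47, and Cd3d with Nkg7 had 0.57. Across lineages, Cd79a with Jchain had -0.18, and Cd79b with Nkg7 had -0.48, the lowest. Cd4 also had 0.72 with Mzb1.

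**Figure D4:**
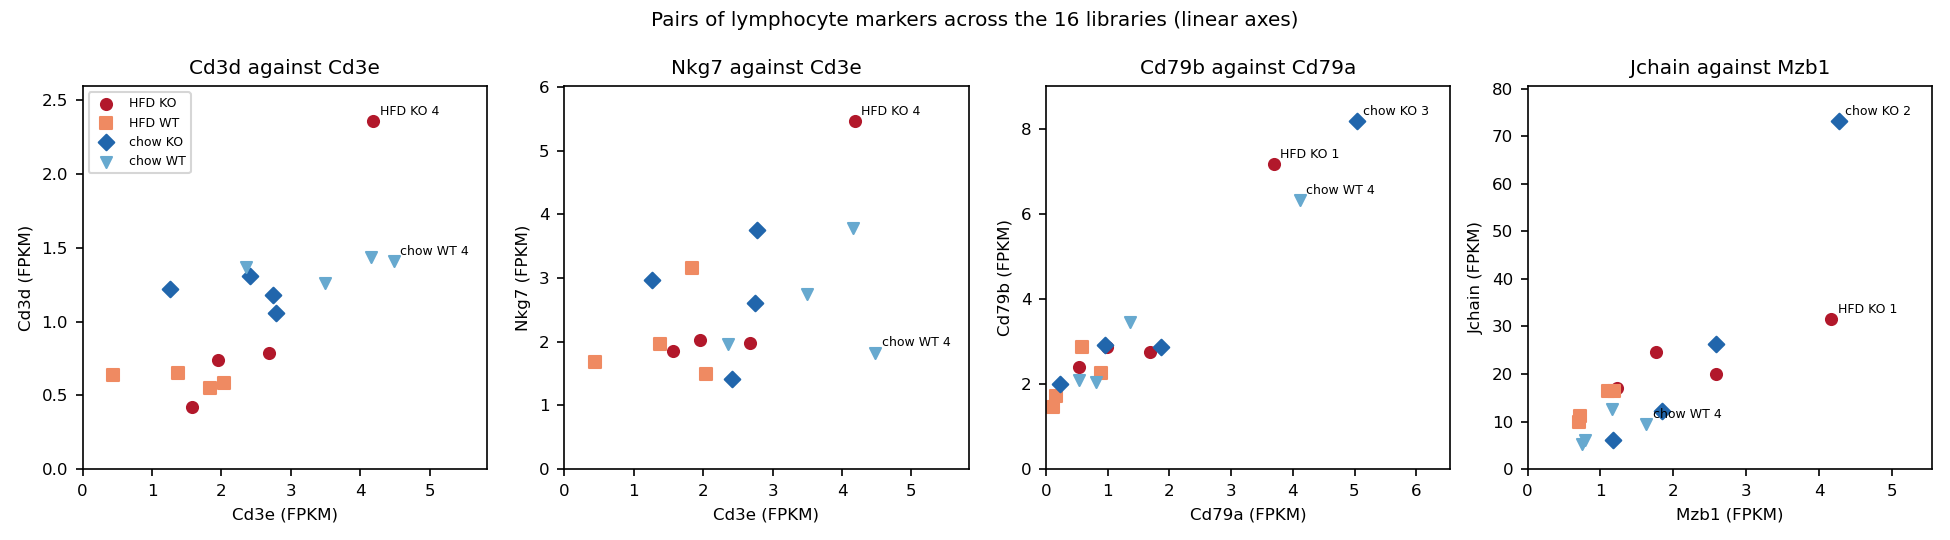
FPKM of 4 pairs of markers in the 16 libraries, on linear axes, with symbols by group. HFD KO-labelled library 1, chow KO-labelled library 3 and chow WT-labelled library 4 stand apart for both B cell receptor chains, and chow KO-labelled library 2 stands at 73.24 FPKM of Jchain.

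The 5 genes closest to Cd79a by the same measure were Cd79b and 4 others known from B cells: Ms4a1 with r of 0.95, Pou2af1, a coactivator of antibody genes, with 0.84, and the transcription factor genes Bach2 with 0.84 and Ikzf3 with 0.83. For Cd3e the closest were Ing3 with 0.90, Srp54a, Mtmr4 and Ufsp1 with 0.82 to 0.83 and Cd3g with 0.80, so 1 of 5 is a CD3 chain. For Nkg7 they were Prrg2, Mrpl39, Pym1, Fads6 and Ptcd1, with 0.87 to 0.91, and for Jchain they were Sall2, Ift80, Nr4a1, Cops7a and Rfx7, with 0.92 to 0.93. None of these 10 was in a lymphocyte list. With 12667 genes and 16 libraries, high values of r also arise among unrelated genes.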

How the data were processed

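RNA was extracted from epididymal fat with TRIzol, made into libraries with an MGIEasy kit and sequenced in pairs of reads on a BGI-seq instrument, per the labels' protocols. STAR 2.7 and the builds GRCm38.p6 and mm10 are named in the submitters' processing notes. The sources used here give no quantifier, annotation or strand. The authors deposited FPKM values with 2 decimals. Because they are not counts, no count model was used.

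Of 20101 genes 19945 matched the reference gene table by Entrez number, 26 symbols turned into dates were restored, 1 blank entry was dropped, and 14408 circular RNA entries were left out. log2(FPKM + 1) was fitted with limma 3.58.1 in R 4.3.3: 12667 genes that reached 1 FPKM in 4 libraries or more, 4 group means in 1 fit of 16 libraries, and empirical Bayes with a variance trend. p was adjusted by Benjamini-Hochberg over all tested genes. Where nothing says how the mice were housed or littered, p-values measure only the spread between these samples.

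The markers and lists were chosen with earlier results of these data known. All 10 markers are named, together with up to 4 genes per lymphocyte list and comparison with the smallest p past the threshold, and for Cd3e, Nkg7, Cd79a and Jchain the 5 genes of most similar pattern, predicted genes left out. Genes named outside this rule (Gzma, Il2rb, Spib, Ms4a1, Ptprc, Cd52 and the stroma and epididymis genes) were chosen after their values were seen. Levels are given as values per library or mean ± SD. Alternatives were 3 scalings, other pseudocounts and filters, array weights, a fit with no variance trend, a replicate block, the 2 groups compared alone and the leaving out of libraries. Some single genes of the lists are not reported here, though they stay in the fits and counts.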

Additional observations from a re-analysis of the deposited data

Results flagged for a closer look

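Dixon's test at its 95% critical value was applied to each of the 10 markers in each of the 4 groups, 40 in all, and 3 had a library far from the others; chance flags about 1 in 20. Nkg7 was at 5.47 FPKM in HFD KO-labelled library 4, against 1.85 to 2.02 FPKM in the other HFD KO-labelled libraries. Cd79b was at 7.18 FPKM in HFD KO-labelled library 1, against 2.41 to 2.86 FPKM in the others of its group. Cd79b was also at 8.19 FPKM in chow KO-labelled library 3, against 2.01 to 2.91 FPKM in the others of its group.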

How the results depend on the processing

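The 2 falls in HFD against chow WT-labelled mice were 0 with a mean FPKM of at least 5, which left 1 marker to test, and 1 to 2 on leaving out each library. They became 3 with Cd4 under median-of-ratios scaling, quantile normalization, array weights and without the 3 libraries holding epididymal RNA, and 3 with Foxp3 when no filter was used. The count for HFD against chow in KO-labelled mice, 0, became 1 with array weights and 1 without the 2 libraries richest in epididymal RNA, and ran from 0 to 1 on leaving out each library. The count averaged over the genotype labels, 1, became 2 with median-of-ratios scaling, 2 with quantile normalization, 2 with array weights, 3 without the 2 epididymal libraries and 0 with a mean FPKM of at least 5, and ran from 0 to 2 on leaving out each library. With array weights and without the 2 epididymal libraries, 1 of these calls was a rise of Jchain. The 1 call without chow KO-labelled library 2 was also that rise. Except for the loss of markers under the stricter filter and of samples, the cause was not tested. All counts between genotype labels and for the interaction stayed at 0 under these alternatives. Of 1551 values of single markers, none reversed a call, 18 gained the threshold, 23 lost it and 89 that had missed it changed sign. Of 105 calls of list genes, examined in the same way after seeing the data, 87 held under every alternative and 0 reversed.

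The replicate block left the counts at 2, 0 and 1 for HFD against chow in WT-labelled mice, in KO-labelled mice and averaged. Deviations of same-numbered libraries correlated at -0.63 to 0.37, and a library correlated best with its own number in 11 of 48 cases. No pairing by number was thus seen. Differences of tissue makeup between libraries can hide a pairing, so this check cannot exclude 1. Quantile normalization moved the median of all genes by -0.10 (HFD against chow, WT-labelled), -0.15 (KO-labelled), -0.13 (averaged) and -0.11 (KO-labelled against WT-labelled on HFD), and median-of-ratios scaling moved the last by -0.10. Unknown read depth limits what can be said of Cd8a, Foxp3 and other markers near 1 FPKM.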

Other observations

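Dendritic cell genes, 8 in the list with 5 tested, are given beside the lymphocyte markers as other cells that present antigen. Siglech, a receptor of plasmacytoid dendritic cells, averaged 1.15 ± 0.55 FPKM in HFD KO-labelled and 1.80 ± 0.57 FPKM in chow KO-labelled libraries, and 0.198 ± 0.113 FPKM in HFD WT-labelled and 1.08 ± 0.31 FPKM in chow WT-labelled libraries (SD, n = 4 each). Its log2 difference of HFD against chow passed the threshold in WT-labelled mice, at -0.79 (limma adjusted p = 0.00654), and not in KO-labelled mice, at -0.39 (adjusted p = 0.14). Cd209a, a lectin of dendritic cells, fell by 0.72 in WT-labelled mice (limma adjusted p = 0.027), a call lost in 4 of 28 alternatives. Flt3, the growth factor receptor of dendritic cells, rose by 0.70 in KO-labelled mice (limma adjusted p = 0.0244), a call lost in 5 of 28 alternatives, and Zbtb46, a dendritic cell transcription factor that endothelium also carries, fell by 0.52 there (adjusted p = 0.00677).

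In chow KO-labelled library 2, which holds the most epididymal RNA, some T cell genes were far above the other 15 libraries while Cd3e, at 2.75 FPKM, was not. Lef1 was at 18.9 FPKM against at most 1.35, Tcf7 at 11.4 FPKM against at most 2.68, and Zap70 at 10.6 FPKM against at most 1.31. The plasma cell gene Derl3 was at 18.4 FPKM there, against at most 2.45 FPKM elsewhere. These genes were picked after their values were seen, and what they share with the epididymal RNA was not tested.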
